A study of Homo sapiens with 2 samples.

Results

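The HOX genes are homeobox transcription factors that lie in 4 chromosomal clusters, HOXA, HOXB, HOXC and HOXD. They were taken here as every gene whose single symbol in the array's annotation is HOXA, HOXB, HOXC or HOXD followed by digits. That rule found 27 members among 18417 named genes, each with 1 probe set. RefSeq lists 39 human HOX genes. All 10 of the HOXB cluster and all 9 of HOXD had a probe set of their own, as did 7 of 9 of HOXC. HOXC4 and HOXC6 share 1 probe set and are described apart from the members. Of the 11 HOXA genes, HOXA2 is a member and the other 10 were not analysed here, so nothing below describes the HOXA cluster as a whole.

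The cells were U251, an established human glioblastoma line grown in high-glucose DMEM. 1 group was given 5 µM G-TPP for 6 h, and the other was given the solvent DMSO in its place. G-TPP is a Gamitrinib, in which an Hsp90 inhibitor is joined to triphenylphosphonium, a cation that collects in mitochondria. The study asked how genes respond when the Hsp90 chaperones of mitochondria are targeted. Each group is 1 array of total RNA, so differences cannot be tested, and words such as higher and lower compare this G-TPP array with this DMSO array and no more.

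HOX proteins bind DNA through the homeodomain and give cells of the embryo their position along the body axis. Genes at the 3′ end of a cluster (low group numbers) act towards the hindbrain, and genes at the 5′ end (high numbers) act towards the tail and in the limbs. Genes with the same number in different clusters are paralogues. The forebrain and midbrain form ahead of the region in which HOX genes are active, and Polycomb proteins keep the clusters silent there. HOX transcripts have nevertheless been described in glioblastoma.

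HOXB9 stood apart from every other member. Its intensity was 1268 in the G-TPP array, against 298.4 in the DMSO array, 4.25-fold higher with G-TPP (log2 difference 2.09). HOXB9 belongs to the posterior, Abdominal-B type of HOX genes and in the mouse helps to pattern the ribs. It was the 1 member at least 2-fold higher, and 0 members were at least 2-fold lower. At 1.5-fold the members counted 1 higher (HOXB9 again) and 4 lower (HOXB3, HOXC8, HOXC9 and HOXD10), beside 7.37% and 3.23% of genes in the background. HOXC8 and HOXC9 were under the floor described below with G-TPP, and with them set at that floor the lower count was 2 (HOXB3 and HOXD10). In the same background, 2.80% of the 11091 genes that passed a brightness filter reached 2-fold on the high side and 0.550% on the low side. The filter asks that the brighter of the 2 arrays reach an intensity of 239.2, the median of that value over all probe sets. Among the genes that passed HOXB9 took rank 53 from the high end.

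**Figure D1:**
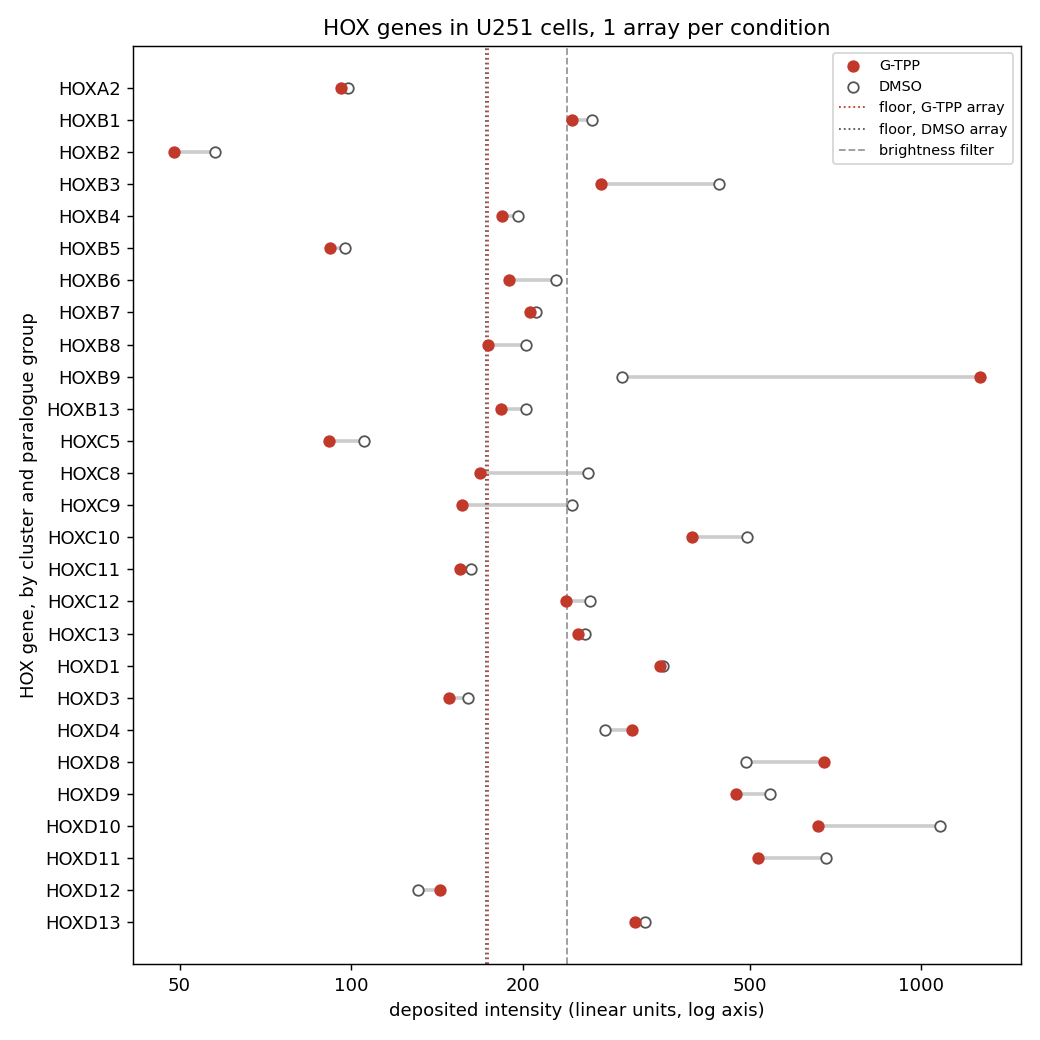
Deposited intensity (log axis) of the 27 HOX genes in the G-TPP array (filled red points) and the DMSO array (open points), by cluster and group number, with the floor of each array (dotted) and the brightness filter (dashed). HOXB9 has 1268 with G-TPP and 298.4 with DMSO, while most other pairs of points lie close together.

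The other members differed less, and the number below 0 depended on the scaling. In the deposited values 23 of the 27 members had a log2 difference below 0 and 4 above it (HOXB9, HOXD8, HOXD4 and HOXD12). After centring on the median or quantile normalization 20 were below 0 and 7 above. After lowess centring on brightness 10 were below 0 and 17 above. The lowess curve was fitted on genes past the brightness filter alone, and members under the filter took their correction from its dim end. There a gene is kept only through its brighter array, so the lowess signs of those members do not settle a direction. The share below 0 over all named genes was 60.1%. The members' median log2 difference was -0.11, beside -0.06 over all named genes. Past the brightness filter were 15 members of 27, beside 60.2% of all named genes, with a median of -0.14 beside -0.04 for all genes kept. That median is a description, since HOXC8, HOXC9 and HOXC12 passed through the DMSO array alone and so had to lie below 0. Dim genes as a whole also lay slightly below 0. The median of all kept genes under the 75th percentile of brightness (intensity 681.4), where 13 of the 15 members lie, was -0.09. After lowess centring the median of the 15 was -0.01. HOXB3, HOXB6, HOXB8, HOXC8, HOXC9, HOXC10, HOXC12, HOXD9, HOXD10 and HOXD11 stayed below 0 under every scaling tried, and HOXB9, HOXD4, HOXD8 and HOXD12 stayed above 0. HOXD12 was under the floor described below in both arrays, so its sign shows no direction.

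Genes with little or no transcript were used to gauge the noise of the pair of arrays. The log2 differences of 341 olfactory receptor genes, which few cells outside the nose express, spanned -0.74 to 0.80 with a standard deviation of 0.19. HOXB9 was the 1 member outside that range. At more than 2 such standard deviations (0.39) from 0 lay 7 members, which were HOXB9, HOXD8, HOXB3, HOXC8, HOXC9, HOXD10 and HOXD11. The same was true of 4.69% of the olfactory receptors and 22.6% of all kept genes. All 7 were among the 15 members that passed the brightness filter, HOXC8 and HOXC9 through the DMSO array alone. The olfactory receptors' median intensity was 64.6 with G-TPP and 68.5 with DMSO, beside 314.1 and 327.8 for the 15 members past the filter. Noise at the brightness of those members was not measured, and variation from culture to culture is not part of this scale.

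Many HOX probe sets were near the level of silent genes, as were those of many other named genes. The 95th percentile of the olfactory receptors, used as a floor, was 173.6 in the G-TPP array and 172.6 in the DMSO array. Above it were 17 of 27 members with G-TPP and 20 with DMSO, beside 67.4% and 69.1% of all named genes. HOXB8, HOXC8 and HOXC9 were above it with DMSO and not with G-TPP. In both arrays 7 members were below it (HOXA2, HOXB2, HOXB5, HOXC5, HOXC11, HOXD3 and HOXD12). Probes of different genes bind with different strength, so the intensities do not rank the genes by amount of transcript. A value under the floor shows no level, and it does not show that a transcript is absent.

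In the HOXB cluster HOXB9 was high between neighbours that were not. HOXB8, next to it on the 3′ side, had 173.5 with G-TPP and 202.4 with DMSO (log2 difference -0.22). On the other side lie MIR196A1 (131.7 with G-TPP and 166.3 with DMSO, under the floor in both arrays) and, farther off, HOXB13, a gene of prostate and hindgut. HOXB13 had 183.1 with G-TPP and 202.8 with DMSO (-0.15). Without HOXB9 the median log2 difference of the 9 other HOXB genes was -0.15 with all 9 below 0. After centring on the median or quantile normalization 8 of the 9 were below 0. After lowess centring the median was 0.03 with 3 of 9 below 0. Of the 9, only 2 (HOXB1 and HOXB3) passed the filter on which the lowess curve was fitted. HOXB9 has a single probe set, so there is no second reading of this gene.

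HOXB3 was the lowest of the cluster. It had 274.5 with G-TPP and 440.9 with DMSO, 1.61-fold lower (log2 difference -0.68), and 1.98% of kept genes were as low or lower. HOXB3 acts in the hindbrain and its annotated span contains HOXB4, a gene known for the growth of blood stem cells. HOXB4 had 183.8 with G-TPP and 196.2 with DMSO (-0.09). Its DMSO value was close to that array's floor of 172.6, so whether it fell as HOXB3 did cannot be read.

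The rest of the cluster lay between -0.28 and -0.03. HOXB1, which marks a single segment of the hindbrain, had 244.2 with G-TPP and 264.1 with DMSO (-0.11). HOXB6 had 188.8 with G-TPP and 228.8 with DMSO (-0.28), just outside the filter. HOXB7 had 205.9 with G-TPP and 210.7 with DMSO (-0.03). HOXB2 and HOXB5 were under the floor in both arrays, at 48.8 and 91.7 with G-TPP and 57.8 and 97.6 with DMSO.

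**Figure D2:**
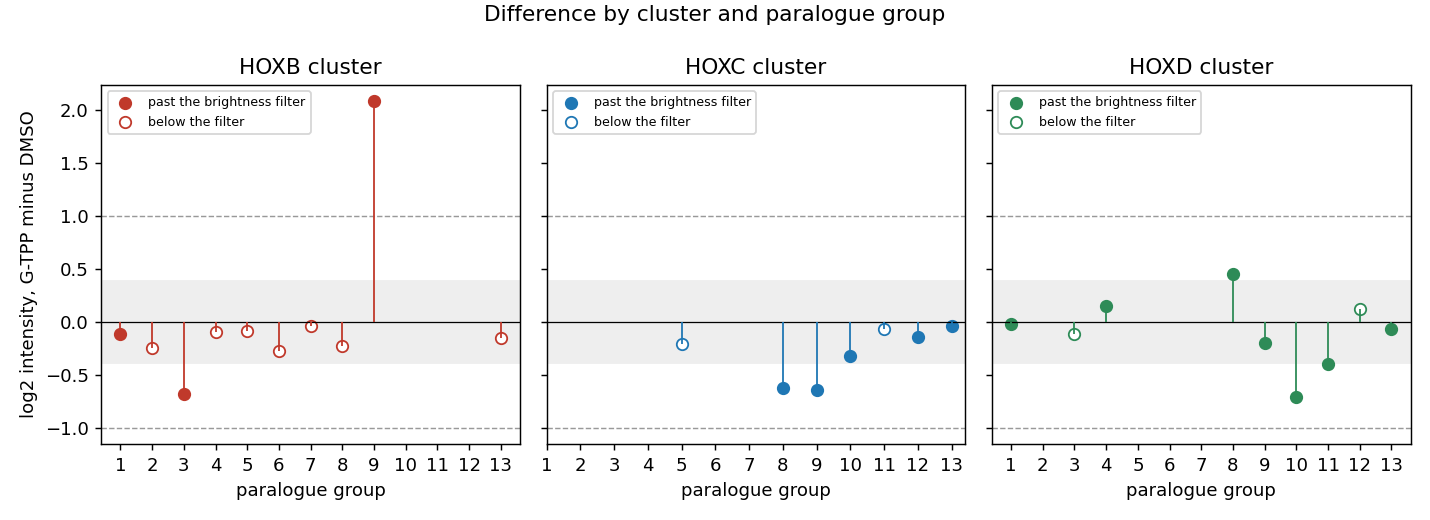
Log2 difference, G-TPP minus DMSO, against paralogue group in the HOXB, HOXC and HOXD clusters; filled points passed the brightness filter, the grey band spans 2 standard deviations of the olfactory receptors (0.39) either side of 0, and dashed lines mark 2-fold. HOXB9 reaches 2.09, HOXC8 and HOXC9 lie low side by side, and HOXD8 and HOXD10 lie on opposite sides of 0.

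All 7 measured HOXC genes had log2 differences below 0 in the deposited values, from -0.64 to -0.04 with a median of -0.20. Below 0 were 6 of the 7 after centring on the median or quantile normalization, and 4 of the 7 after lowess centring. The pair HOXC8 and HOXC9, neighbours that act in the trunk, was the lowest. HOXC8 had 168.5 with G-TPP and 260.1 with DMSO (-0.63). HOXC9 had 156.7 with G-TPP and 244.1 with DMSO (-0.64). Both passed the filter through the DMSO array, HOXC9 only just, and both were under the floor with G-TPP. Set against that floor their log2 differences were -0.58 or lower for HOXC8 and -0.49 or lower for HOXC9.

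Farther towards the 5′ end the differences shrank. HOXC10, a gene of lumbar levels and hindlimb, had 396.0 with G-TPP and 493.5 with DMSO, 1.25-fold lower. HOXC12 had 238.4 with G-TPP, just under the filter, and 262.2 with DMSO (-0.14). HOXC13, a gene of hair and nail, had 250.4 with G-TPP and 256.8 with DMSO (-0.04). HOXC11 and HOXC5 were under the floor in both arrays, with log2 differences of -0.06 and -0.20. The probe set shared by HOXC4 and HOXC6 had 402.9 with G-TPP and 428.6 with DMSO (-0.09), so it was not low to the degree of HOXC8 next to it.

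The HOXD cluster pointed both ways, with 3 of 9 genes above 0 and a median of -0.06. Above 0 were 4 of 9 after centring on the median or quantile normalization, and 6 of 9 after lowess centring. HOXD10, which acts in the lumbar spinal cord and the limbs, had 659.0 with G-TPP and 1079 with DMSO. It was 1.64-fold lower (log2 difference -0.71), the lowest of all members, and 1.68% of kept genes were as low or lower. Its 5′ neighbour HOXD11, a gene of the forearm, had 517.8 with G-TPP and 680.1 with DMSO (-0.39). Its 3′ neighbour HOXD9 had 473.3 with G-TPP and 543.2 with DMSO (-0.20).

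HOXD8, beyond HOXD9, was on the other side of 0. It had 674.3 with G-TPP and 493.4 with DMSO, 1.37-fold higher (log2 difference 0.45), at rank 1220 from the high end of the 11091 kept genes. HOXD4, a hindbrain gene that answers to retinoic acid, had 310.9 with G-TPP and 279.0 with DMSO (0.16). HOXD1 and HOXD13, at the ends of the cluster, had log2 differences of -0.02 and -0.06. HOXD13, in which mutations cause fused and extra digits, had 314.1 with G-TPP and 327.8 with DMSO. HOXD3 and HOXD12 were under the floor in both arrays, at -0.11 and 0.13.

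Paralogues with the same number shared a direction in some groups and not in others. In group 9 HOXB9 was at 2.09, HOXC9 at -0.64 and HOXD9 at -0.20. In group 8 HOXD8 was at 0.45, HOXB8 at -0.22 and HOXC8 at -0.63. In group 10 HOXC10 and HOXD10 were both low, at -0.32 and -0.71. By position along the axis the medians lay close together, at -0.11 over 6 anterior genes (groups 1 to 3), -0.09 over 9 central genes (4 to 8) and -0.14 over 12 posterior genes (9 to 13). Without HOXB9 the posterior median was -0.15. Among genes past the filter the medians were less close, at -0.11 over 3 anterior, 0.16 over 3 central and -0.20 over 9 posterior genes.

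**Figure D3:**
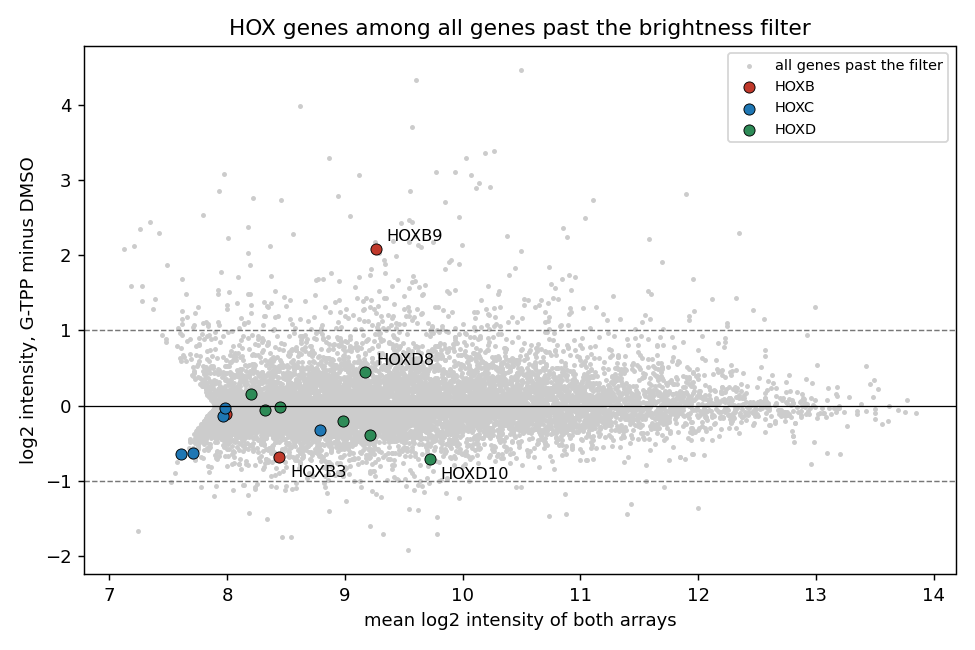
Log2 difference, G-TPP minus DMSO, against the mean log2 intensity of both arrays for the 11091 genes past the brightness filter (grey) and the 15 HOX genes among them (coloured by cluster); dashed lines mark 2-fold. HOXB9 lies well above the 2-fold line at 2.09, and the other 14 lie between -0.71 and 0.45.

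The promoters of HOXD8 and HOXD10 are shown because these genes of 1 cluster lay on opposite sides of 0. Each runs from 250 bases before to 50 bases after the gene's start in RefSeq, build GRCh38.p14, plus strand, 5′ to 3′. HOXD8 is at chr2:176129455-176129754 and HOXD10 at chr2:176116528-176116827. Capitals mark TAAT on either strand (ATTA where it lies on the other), the short core that many homeodomains bind.
HOXD8: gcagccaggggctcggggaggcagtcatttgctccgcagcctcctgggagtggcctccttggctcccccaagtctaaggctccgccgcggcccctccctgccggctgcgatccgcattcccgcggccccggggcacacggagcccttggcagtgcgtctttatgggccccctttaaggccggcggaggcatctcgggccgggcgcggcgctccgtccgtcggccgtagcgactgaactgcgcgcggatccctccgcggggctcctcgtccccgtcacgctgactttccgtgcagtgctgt
HOXD10: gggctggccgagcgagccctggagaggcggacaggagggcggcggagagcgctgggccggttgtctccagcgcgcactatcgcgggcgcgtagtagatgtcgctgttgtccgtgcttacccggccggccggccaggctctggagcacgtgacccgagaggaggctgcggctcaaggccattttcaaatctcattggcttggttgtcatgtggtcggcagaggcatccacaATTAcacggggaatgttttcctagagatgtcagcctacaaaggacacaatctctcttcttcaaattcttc
HOXD8 has 34 CG pairs in this window and no TAAT, and HOXD10 has 23 CG pairs and 1 TAAT.

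RefSeq's promoter table held 11 of the 27 members, HOXB9 not among them. These 11 promoters had a median of 23 CG pairs, from 4 in HOXD4 to 36 in HOXD1, beside a median of 14 over 34796 distinct promoters. TAAT, searched on both strands as all motifs here, was in 9 of the 11 and in 50.3% of all promoters. TGATNNAT, the joint site of HOX and PBX proteins, was in 3 (HOXA2, HOXB1 and HOXD11), against 7.42% of all. TGATGNAA, the site of C/EBP and ATF pairs in stress genes, was in 0 of the 11 and in 3.63% of all. TGATNNAT and TGATGNAA can overlap in part. A match in these letters is a description and not a binding site.

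MicroRNA genes lie inside the clusters too. Those of miR-196a are shown because the same mature sequence comes from 2 clusters, MIR196A1 beside HOXB9 (chr17:48632532-48632553, minus strand) and MIR196A2 between HOXC10 and HOXC9 (chr12:53991762-53991783, plus strand). MIR10A lies beside HOXB4 (chr17:48579904-48579926, minus strand). Sequences are RefSeq's on GRCh38.p14, 5′ to 3′, with the seed (bases 2 to 8) in capitals.
miR-196a-5p: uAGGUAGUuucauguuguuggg
miR-10a-5p: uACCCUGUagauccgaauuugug
In vertebrates miR-196 is known to act on HOX transcripts, HOXB8 above all.

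The probe sets of both miR-196a genes read alike and low. MIR196A1 had 131.7 with G-TPP and 166.3 with DMSO, and MIR196A2 had 100.7 with G-TPP and 127.4 with DMSO. The log2 difference was -0.34 for each, and both were under the floor in both arrays. MIR10A was far under it, at 14.7 with G-TPP and 15.6 with DMSO. Whether these probes read mature or precursor RNA is not given in the sources used here.

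The other genes inside or beside the clusters did not move with HOXB9. Of 27 asked for 13 were measured and 6 kept, with 0 at 2-fold. HOXB-AS3, the antisense transcript near HOXB5, had 217.1 with G-TPP and 254.6 with DMSO (-0.23). EVX2, the homeobox gene beyond HOXD13, had 232.3 with G-TPP and 287.6 with DMSO (-0.31). Both HOXB-AS3 and EVX2 passed the filter through the DMSO array alone and so had to lie below 0. LNPK and SKAP2, genes with other tasks that flank the HOXD and HOXA clusters, were at 0.26 and 0.22.

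HOX proteins bind DNA together with TALE homeodomain proteins of the PBX, MEIS and PKNOX families. Of 9 such genes 7 were measured and 5 kept, with a median log2 difference of -0.18 and 0 at 2-fold. PKNOX1, also called PREP1, had 580.0 with G-TPP and 373.6 with DMSO, 1.55-fold higher. MEIS2 had 444.3 with G-TPP and 561.8 with DMSO (-0.34), and PBX4 340.6 with G-TPP and 417.7 with DMSO (-0.29). MEIS3 was at -0.18 and PBX3 at 0.03.

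Polycomb proteins repress the HOX clusters, and trithorax proteins keep them active. Of 22 kept Polycomb genes, 1 was at least 2-fold lower and 0 at least 2-fold higher, with a median of -0.12. Over all kept genes 0.550% were that low and 2.80% that high. CBX6, a chromodomain subunit of complex PRC1, had 620.4 with G-TPP and 1384 with DMSO, 2.23-fold lower, and PCGF2, also of PRC1, was 1.74-fold lower. JARID2 and EZH2 of complex PRC2, EZH2 being its methyltransferase, were 1.73-fold and 1.42-fold higher. Of 19 kept trithorax and activator genes, 1 was at least 2-fold higher and 0 at least 2-fold lower, with a median of 0.12. The shares of all kept genes were again 2.80% and 0.550%. KDM6A, a demethylase that removes the mark EZH2 sets, had 990.1 with G-TPP and 485.4 with DMSO, 2.04-fold higher. MLLT3 and AFF1 were 1.67-fold and 1.56-fold higher, and the methyltransferase gene DOT1L 1.52-fold lower.

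Genes that act upstream of HOX in the embryo had 8 of 20 kept, with a median of -0.22, beside -0.16 over the 16 measured. RARB and RARG were among those that passed the filter through the DMSO array alone and so had to lie below 0. RARB, a retinoic acid receptor, had 151.1 with G-TPP, under the floor, and 320.7 with DMSO, at least 1.85-fold lower against the floor. RARG and RXRA were at -0.43 and -0.33. Patterning genes of the forebrain and midbrain had 11 of 18 kept, 0 at 2-fold and a median of -0.22. DLX1 had 350.6 with G-TPP and 497.1 with DMSO, 1.42-fold lower, and OTX1, LHX2 and IRX5 were at -0.36, -0.32 and -0.30. Their median was below that of the kept HOX genes (-0.14). LHX2 was among those that passed the filter through the DMSO array alone and so had to lie below 0. Over all measured genes the medians were alike, at -0.11 for the 17 patterning genes and -0.11 for the 27 HOX genes.

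**Figure D4:**
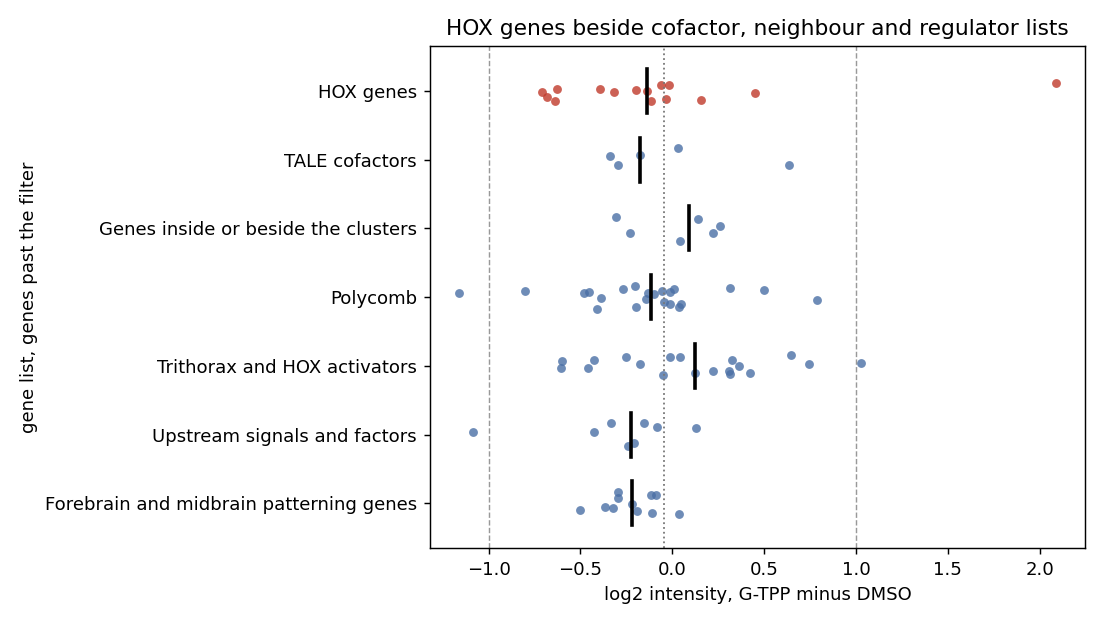
Log2 difference, G-TPP minus DMSO, of each gene past the brightness filter in the HOX genes (red) and 6 lists of cofactors, neighbours and regulators (blue); black bars are list medians, the dotted line is the median of all kept genes (-0.04) and dashed lines mark 2-fold. The HOX median is -0.14, and HOXB9 at 2.09 is the value farthest right.

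Astroglial and glioma markers were above the floor in both arrays for 9 of 12 genes, beside 12189 of 18417 named genes. Several of the markers differed more than any of the lower HOX genes. PDGFRA, a growth factor receptor, had 490.1 with G-TPP and 1592 with DMSO. SOX2, a factor of neural stem cells, had 1629 with G-TPP and 4434 with DMSO. At least 2-fold lower were 2 of the 9 kept markers (PDGFRA and SOX2), beside 0.550% of all kept genes. SOX9 was 1.98-fold lower and SLC1A3 1.56-fold higher. CD44 and VIM, genes of mesenchymal glioma cells, had 7614 and 6494 with G-TPP and 8013 and 7146 with DMSO. GFAP, the astrocyte filament, was dim (231.5 with G-TPP and 245.2 with DMSO), and AQP4 and S100B were under the floor in both arrays.

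Markers of other cell types were mixed, and their counts above the floor stand beside the same 12189 of 18417 named genes. Above the floor in both arrays were 2 of 5 neuronal genes (RBFOX3 and SNAP25), 2 of 5 immune genes (CD68 and TYROBP), 2 of 4 endothelial genes (CDH5 and CLDN5), 2 of 4 epithelial genes (KRT8 and KRT18) and 0 of 1 blood gene. KRT8, a keratin of simple epithelia, was at 1809 with G-TPP and 2167 with DMSO. PTPRC of leukocytes, PECAM1 of endothelium and EPCAM of epithelium were under the floor in both arrays. None of these genes of other cell types reached 2-fold, and the part of either marker set in the HOX values was not tested.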

How the data were processed

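Gene expression was measured on 2 Affymetrix arrays of U251 RNA, 1 per condition, grouped by the agent in the labels. The deposited table holds 1 linear intensity per probe set. The authors made it by RMA with Affymetrix Expression Console 1.1.2, per the submitters' processing notes. RMA makes the distributions of arrays alike, so a change in total RNA per cell is not visible. The genome build was not given in the sources used here. Precision is limited by the number of arrays.

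Of 33297 probe sets, 19460 had 1 symbol in the platform annotation, 1754 had several and 12083 were not listed. Symbols were updated by gene ID through RefSeq (GRCh38.p14), and the probe set with the highest mean was used per gene. Log2 differences had no pseudocount. With 1 array per group no test was made; genes were counted at 2-fold. The floor is a guide, since probes differ in background.

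Named were all members, all kept TALE cofactors and up to 4 kept genes with the largest difference per list. Members, gene lists, floor and thresholds were chosen with earlier results of these data known. Software was matplotlib 3.10.9, statsmodels 0.14.6, pandas 2.3.3 and numpy 2.4.6 under Python 3.11.15. Alternatives were other thresholds, filters, centrings, probe set choices, a pseudocount of 16 and other floors.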

Additional observations from a re-analysis of the deposited data

How the results depend on the processing

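With 1 array per group leaving out a replicate was not possible, and no depth or background values beside the intensities were used. Each member has 1 probe set, so the 2 alternatives on the choice of probe set could not move a member's value. HOXB9 was the 1 member at least 2-fold higher under the 8 others, and its log2 difference ran from 2.03 to 2.13 over the 4 that recompute it. At 1.5-fold, 4 members were lower in place of 0 (HOXB3, HOXC8, HOXC9 and HOXD10), beside 3.23% of kept genes; with HOXC8 and HOXC9 at the floor the count was 2. The median over HOX genes was 0.69 at the 75th percentile filter, which leaves 2 members, HOXB9 and HOXD10. It was -0.11 with no filter, -0.09 after centring on the median, -0.08 after quantile normalization and -0.01 after lowess centring (span 0.3). Members below 0 numbered 20 of 27 after centring on the median or quantile normalization. The lowess curve was fitted on kept genes alone. Genes under the filter took its value at their brightness or, if dimmer than all kept genes, its end value. Of the 108 gene values of these 4 alternatives 101 moved by less than the olfactory receptors' standard deviation of 0.19 and 7 by more, all 7 of genes under the floor in both arrays after lowess centring. The difference of 13 members changed sign under some alternative, and that of 14 did not, among them HOXB9, HOXD8, HOXB3, HOXC8, HOXC9, HOXD10 and HOXD11. Members above the floor numbered 13 to 23 with G-TPP and 14 to 22 with DMSO under other floors. Of the 18417 named genes, 10600 to 13552 with G-TPP and 10499 to 13711 with DMSO were above the same floors.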
